A study of Rattus norvegicus with 6 samples.

Results

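The integrated stress response is described here through 10 of its genes, taken by symbol from a bulk RNA sequencing count table of rat pancreas that holds 19780 symbols. They were the transcription factor genes Atf4, Ddit3, Atf3, Atf5, Cebpb and Cebpg, the pseudokinase gene Trib3, the glutathione-degrading enzyme gene Chac1, the stress-induced chromatin protein gene Nupr1 and the phosphatase subunit gene Ppp1r15a. Of these 10 genes, 6 carried counts, 2 (Atf5 and Ppp1r15a) were listed at 0 in every library, and 2 (Cebpg and Nupr1) are not analysed here. The samples were 3 of pancreas with acute pancreatitis (AP) after intraperitoneal L-arginine and 3 of control pancreas (CTL) after intraperitoneal saline. All came from wild-type male Sprague-Dawley rats, an outbred strain, 8 weeks old and weighing 200 to 250 g. The dose and time are stated differently in the sources: 5 mg/kg and 36 hours in the sample labels, but 2.5 g/kg given 2 times and 48 hours in the description of the design. L-arginine in excess injures acinar cells, the enzyme-secreting cells of the pancreas.

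In the integrated stress response, kinases that sense unfolded protein, amino acid shortage, heme shortage or double-stranded RNA phosphorylate the translation initiation factor eIF2. General protein synthesis then slows, while a few messenger RNAs with upstream reading frames, Atf4 among them, are translated better. ATF4 pairs with C/EBP and other bZIP proteins (factors that bind DNA through a basic region and dimerise through a leucine zipper) and switches on genes of amino acid supply and the factor CHOP, encoded by Ddit3. Acinar cells make so much secreted protein that they depend on this pathway and on the unfolded protein response. Messenger RNA levels do not report the translation of Atf4 or the phosphorylation of eIF2.

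Libraries held 14453584 to 18961353 counts. The 12 markers of acinar cells took 0.718%, 0.756% and 5.38% of the named counts in AP replicates 1 to 3, and 42.2%, 43.3% and 42.3% in CTL replicates 1 to 3. The 10 markers of macrophages took 1.10% to 1.27% in AP libraries and 0.00679% to 0.00839% in CTL libraries, and none of them was at 0 in any library. CPM is a gene's counts set against the library's named counts and brought to a common total. Normalised CPM are scaled further by TMM, which brings the middle of the tested genes to a like level in all libraries. They are therefore relative to other genes and are not shares of reads. In bulk tissue, fewer cells of a type and less RNA per cell cannot be told apart.

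Among the 6 genes with counts, 3 were lower and 2 were higher in AP. Chac1, Trib3 and Atf4 fell, Atf3 and Cebpb rose, and Ddit3 did not pass the test (edgeR's quasi-likelihood test, adjusted p below 0.05 over all tested genes). All 6 passed the filter on low counts. Over the 13240 tested genes 64.6% were called, 34.1% as higher and 30.5% as lower in AP, so 5 called genes of 6 stand against a background in which most genes were called. The median log2 fold change of the 6 genes was -1.15, against 0.07 for all tested genes. In normalised CPM the groups did not overlap for the 5 called genes. Over all tested genes, 37.8% lay wholly higher and 33.1% wholly lower in AP.

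**Figure D1:**
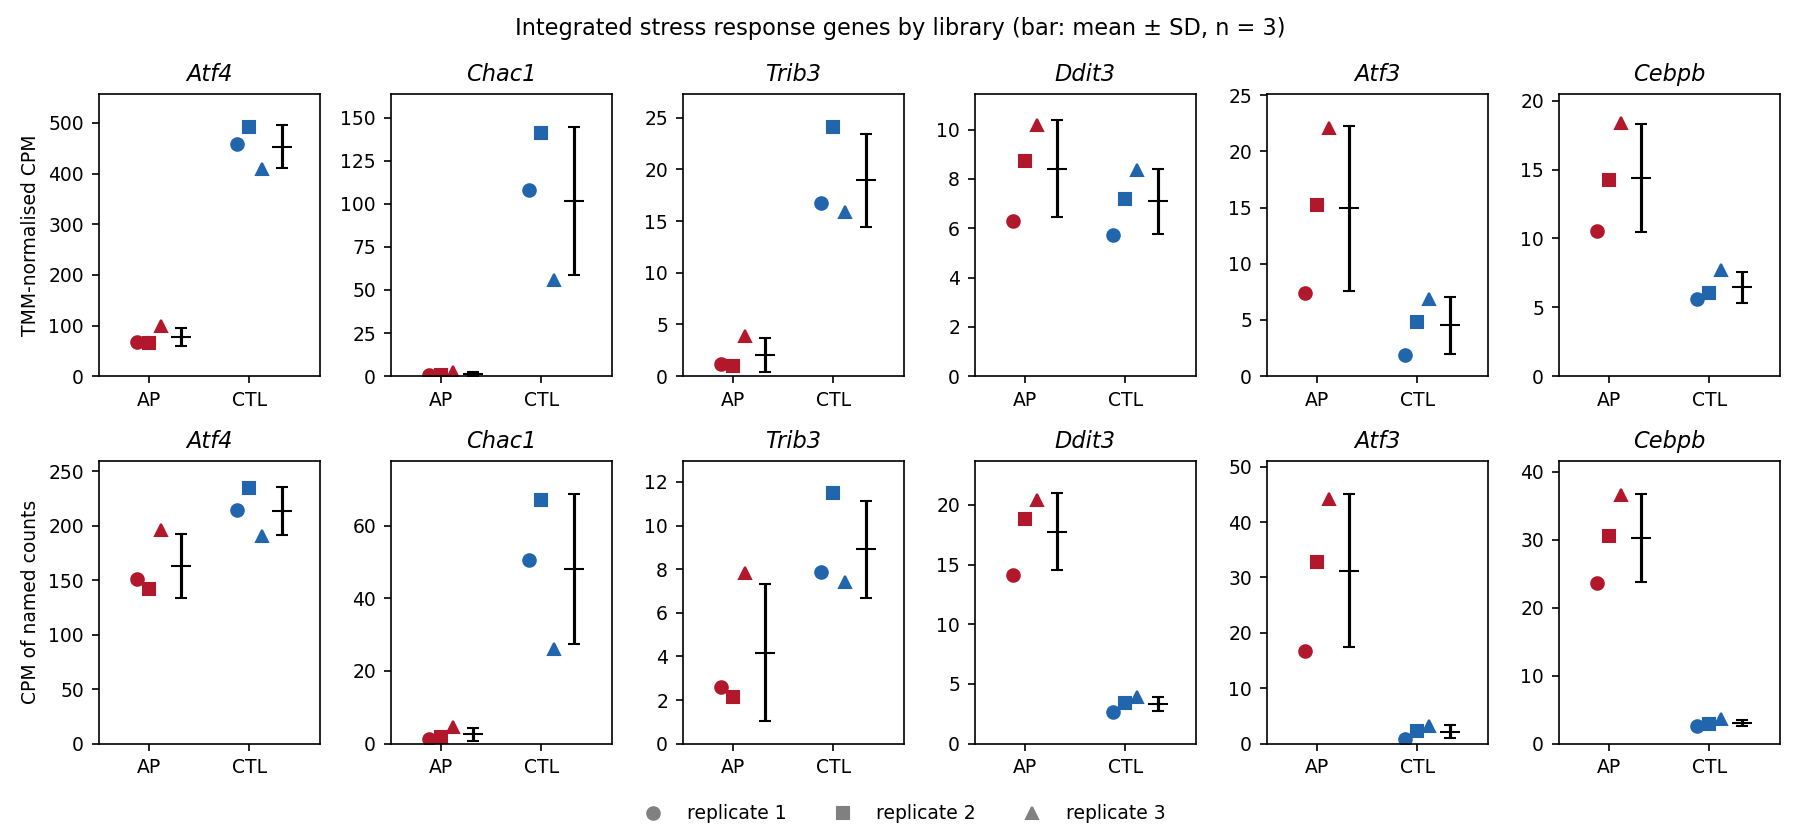
Level of each of the 6 counted genes in every library, with AP left and CTL right, in TMM-normalised CPM (upper row) and in CPM of named counts (lower row). Symbols mark replicates and bars give mean ± SD (n = 3). Chac1 was lower in AP in both rows, whereas Ddit3 overlapped between the groups in the upper row and lay higher in AP in the lower row.

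Atf4, the central transcription factor of the pathway, had 2740, 2644 and 3342 counts in AP replicates 1 to 3, and 3693, 3898 and 2545 in CTL replicates 1 to 3. These corresponded to 67.5, 65.7 and 98.3 normalised CPM in AP, against 458, 492 and 409 in CTL. AP replicate 3 was the highest AP library and CTL replicate 3 the lowest CTL library, and on this scale the groups lay far apart. In CPM of named counts the groups overlapped, with 196 in AP replicate 3 and 191 in CTL replicate 3. The means were 77.2 ± 18.3 normalised CPM in AP and 453 ± 42.0 in CTL (SD, n = 3 each). Atf4 fell by 2.55 ± 0.197 (SE) on the log2 scale, or 5.87-fold (edgeR adjusted p = 1.1e-05). Of the 13240 tested genes, 704 had a lower log2 fold change.

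Chac1 encodes a gamma-glutamylcyclotransferase that degrades glutathione and is a known target of the ATF4 pathway. Its counts were 25, 33 and 80 in AP replicates 1 to 3 and 871, 1117 and 348 in CTL replicates 1 to 3. In normalised CPM these were 0.616, 0.821 and 2.35 in AP, against 108, 141 and 55.9 in CTL. The spread among controls was wide, since CTL replicate 3 held less than the other controls, yet every control exceeded every AP library. Chac1 fell by 6.36 ± 0.552 on the log2 scale, an 82.1-fold lower level in AP (edgeR adjusted p = 2.11e-05). A lower log2 fold change was found in 63 tested genes. Without AP replicate 3, which kept the most acinar transcripts, the log2 fold change was -7.14.

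Trib3 encodes a pseudokinase that ATF4 and CHOP induce and that in turn restrains ATF4. It was counted 47, 40 and 133 times in AP replicates 1 to 3, against 135, 191 and 99 times in CTL replicates 1 to 3. Normalised CPM were 1.16, 0.995 and 3.91 in AP and 16.8, 24.1 and 15.9 in CTL. AP replicate 3 again stood above the other AP libraries, still below every control on this scale. In CPM of named counts the groups overlapped, with 7.81 in AP replicate 3 and 7.42 in CTL replicate 3. Trib3 fell by 3.24 ± 0.509 on the log2 scale, or 9.47-fold (edgeR adjusted p = 0.000613), and 446 tested genes had a lower value. Without AP replicate 3 its log2 fold change was -4.14.

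The stretches of promoter that follow are shown because a sequence feature shared by Chac1 and Trib3, the genes that fell most, can be read in them. They are the 250 bases before the transcription start in RefSeq, build GRCr8, in the direction of the gene. The counts come from another build, mRatBN7.2. Capitals mark the C/EBP-ATF composite element, searched as TGATGNAA on both strands. Ddit3 is printed as a gene without a match in this stretch, and bases further upstream were not searched. Atf4, which also fell, held no match either and is not printed.
Chac1, chr3:126795881-126796130, plus strand: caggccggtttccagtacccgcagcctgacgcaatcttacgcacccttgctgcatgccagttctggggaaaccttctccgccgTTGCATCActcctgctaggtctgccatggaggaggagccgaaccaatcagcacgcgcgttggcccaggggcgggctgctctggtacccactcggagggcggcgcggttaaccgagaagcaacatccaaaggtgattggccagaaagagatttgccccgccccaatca
Trib3, chr3:161275534-161275783, minus strand: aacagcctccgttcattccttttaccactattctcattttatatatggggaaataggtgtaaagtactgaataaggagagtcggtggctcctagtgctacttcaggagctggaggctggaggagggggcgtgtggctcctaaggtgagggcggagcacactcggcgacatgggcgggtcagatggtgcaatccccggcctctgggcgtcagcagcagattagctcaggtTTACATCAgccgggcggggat
Ddit3, chr7:65001445-65001694, plus strand: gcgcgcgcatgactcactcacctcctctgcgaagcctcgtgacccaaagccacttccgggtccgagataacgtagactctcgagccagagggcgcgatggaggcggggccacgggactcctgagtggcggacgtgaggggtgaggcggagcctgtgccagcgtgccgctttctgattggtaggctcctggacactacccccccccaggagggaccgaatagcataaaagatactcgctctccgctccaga
In windows of 300 bases that reach 50 bases past the start, 3.98% of 33469 promoters held this element. A promoter was given for 9 of the 10 genes, all but Atf3, and 3 of the 9 held a match, namely Chac1, Trib3 and Nupr1. In each of these 3 the element lay on the strand opposite to the gene, with its first base at -167 in Chac1, -21 in Trib3 and -55 in Nupr1. A cAMP response element (TGACGTCA), present in 1.83% of all promoters, was found in Ppp1r15a. No match to the ER stress response element (searched on both strands and present in 0.0657% of all promoters) was found in the 9 windows. No matches to different motifs overlapped. A match is a description of letters and was not tested for binding.

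Ddit3 encodes CHOP, a C/EBP-like factor known for promoting cell death under lasting stress. It had 256, 351 and 347 counts in AP replicates 1 to 3, against 46, 57 and 52 in CTL replicates 1 to 3. Normalised CPM were 6.31, 8.73 and 10.2 in AP and 5.71, 7.199 and 8.35 in CTL, and the groups overlapped. The log2 fold change was 0.25 ± 0.25 (edgeR adjusted p = 0.4), close to the middle of the tested genes, with 7363 genes lower and 5876 higher. In CPM of named counts, without TMM, Ddit3 stood at 14.1, 18.8 and 20.4 in AP and 2.67, 3.43 and 3.90 in CTL, and no AP library overlapped a control. RefSeq places Ddit3 over part of Mars1, a methionyl-tRNA synthetase gene, and without stated strand counting reads of the overlap cannot be assigned with certainty. Mars1 itself fell by 2.25 ± 0.187 on the log2 scale (edgeR adjusted p = 1.64e-05), but stood at -0.083 with library totals.

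Atf3, a bZIP factor of the immediate stress response that ATF4 can induce, was counted 302, 614 and 752 times in AP replicates 1 to 3, against 15, 38 and 43 times in CTL replicates 1 to 3. In normalised CPM these were 7.44, 15.3 and 22.1 in AP and 1.86, 4.80 and 6.91 in CTL. AP replicate 1, the lowest of its group, lay just above the highest control. Atf3 rose by 1.75 ± 0.503 on the log2 scale, or 3.36-fold (edgeR adjusted p = 0.0146). With limma-voom the adjusted p was 0.0809, so the call of Atf3 rests on the tool. RefSeq places Atf3 over the gene Garin4, which is not analysed here.

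Cebpb, a C/EBP factor that also directs inflammatory and myeloid genes, had 429, 572 and 624 counts in AP replicates 1 to 3 and 45, 48 and 48 in CTL replicates 1 to 3. Its levels were 10.6, 14.2 and 18.3 normalised CPM in AP, against 5.58, 6.06 and 7.71 in CTL. Every AP library exceeded every control. Cebpb rose by 1.16 ± 0.249 on the log2 scale, or 2.24-fold (edgeR adjusted p = 0.00345). Macrophage markers also rose between the groups, in 10 of 10 cases with a median log2 fold change of 4.70. Within AP they took 1.27%, 1.21% and 1.10% of named counts in replicates 1 to 3. On that scale, in CPM of named counts, Cebpb stood at 23.7, 30.6 and 36.6 and Atf3 at 16.7, 32.8 and 44.1 in AP replicates 1 to 3. The part of macrophage markers in the rises of Cebpb and Atf3 was not tested.

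Atf5, a bZIP factor close to ATF4, and Ppp1r15a, the stress-induced subunit that directs a phosphatase to eIF2, were listed at 0 in all 6 libraries. So were 3238 symbols in all, 16.4% of the table, among them the widely expressed kinase gene Mapk3. The genes next to Ppp1r15a in RefSeq, Nucb1 and Plekha4, summed to 16140 and 690 counts over the 6 libraries. Atf5 overlaps Nup62 and Il4i1 in RefSeq. A value of 0 is therefore given here as listed and not as absence of the transcript.

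AP replicate 3 was the highest AP library in normalised CPM for all 6 counted genes. It was also the AP library with the most acinar marker counts, and the part of that in these levels was not tested. Among controls, replicate 3 was the lowest for Atf4, Trib3 and Chac1 and the highest for Ddit3, Atf3 and Cebpb.

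The direction of a fold change depends on how libraries are scaled. With library totals in place of TMM, the median log2 fold change of all tested genes moved by 2.17, with 88.2% of genes called higher and 4.33% lower in AP. With totals less the counts of acinar markers it moved by 1.41, with 77.2% called higher and 8.03% lower. None of the 6 genes changed sign under either. Chac1 remained lower with totals (log2 fold change -4.21, edgeR adjusted p = 3.63e-05), and Atf4 was called at -0.39 (edgeR adjusted p = 0.0438), with groups that overlapped in CPM. Trib3 was at -1.10 with totals (edgeR adjusted p = 0.0511) and -1.85 with totals less acinar counts (edgeR adjusted p = 0.00682). Ddit3 was called higher with both, at 2.42 (edgeR adjusted p = 9.86e-06) and 1.65 (edgeR adjusted p = 0.000206). Atf3 stood at 3.90 and 3.14 and Cebpb at 3.32 and 2.56 with these scalings. A scaling moves all genes by about the same amount, so it cannot alter the order of the 6 genes, which was Chac1, Trib3, Atf4, Ddit3, Cebpb and Atf3, lowest first.

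**Figure D2:**
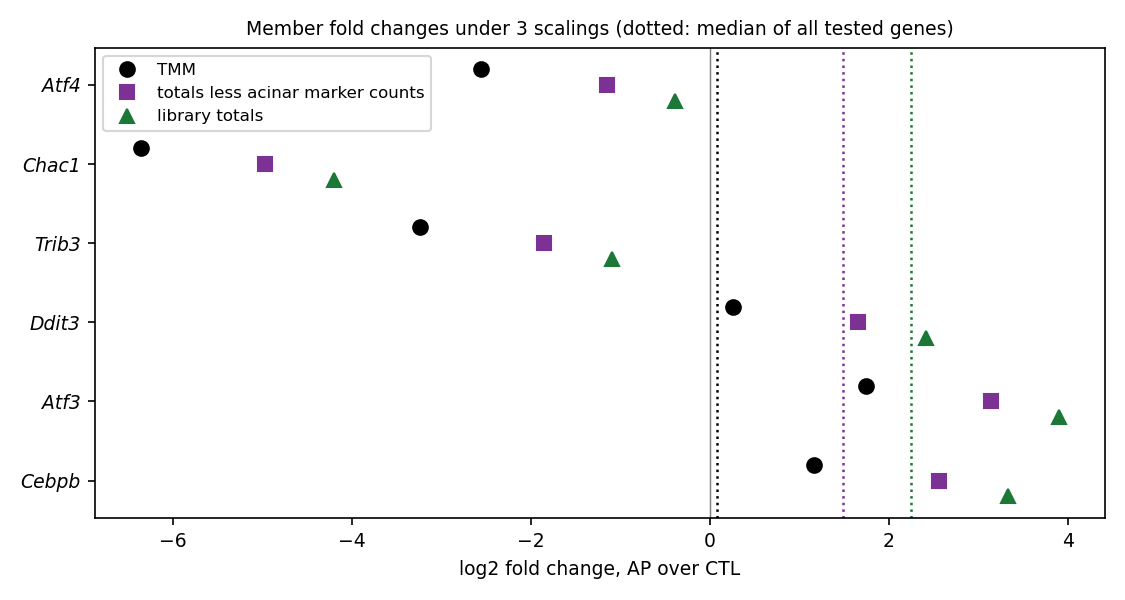
Log2 fold change, AP over CTL, of the 6 counted genes under TMM, under library totals and under library totals less the acinar marker counts. Dotted lines give the median of all 13240 tested genes under each scaling (0.07, 2.25 and 1.48). Genes and median shift together between scalings. Chac1, Trib3 and Atf4 lie left of the median, Atf3 and Cebpb right of it and Ddit3 next to it.

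Ratios of 2 genes within a library do not depend on scaling, although each also carries the difference in gene length. The log2 ratio of Ddit3 to Atf4 counts was -3.42, -2.91 and -3.27 in AP replicates 1 to 3, against -6.33, -6.10 and -5.61 in CTL replicates 1 to 3. CHOP messenger RNA per Atf4 messenger RNA was thus 7.02-fold higher in AP, with no overlap between the groups. The ratio of Atf3 to Atf4 was 20.5-fold higher, at -2.48 ± 0.608 in AP and -6.84 ± 1.04 in CTL (log2, SD, n = 3 each). Chac1 relative to Atf4 was 15.0-fold lower, at -6.16 ± 0.710 in AP and -2.25 ± 0.553 in CTL. For Trib3 relative to Ddit3 the log2 values were -2.45, -3.13 and -1.38 in AP and 1.55, 1.74 and 0.93 in CTL, a 13.3-fold lower ratio in AP. All of these ratios kept the groups apart. With 3 samples a group an exact permutation test cannot give a p below 0.1, so the ratios are given as descriptions.

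**Figure D3:**
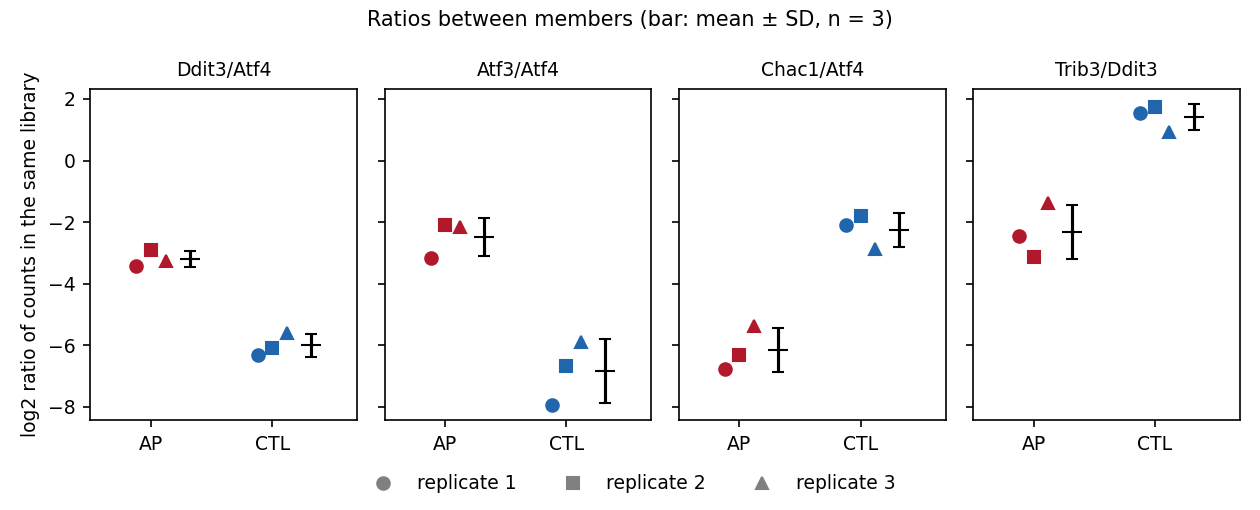
Log2 ratio of the counts of 2 members in the same library, with AP left and CTL right. Symbols mark replicates and bars give mean ± SD (n = 3). Ddit3 and Atf3 relative to Atf4 lie higher in AP, and Chac1 relative to Atf4 and Trib3 relative to Ddit3 lie lower in AP.

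Set against the summed acinar markers of the same library, Chac1 was the gene whose groups overlapped. Its log2 ratio was -12.35, -12.07 and -13.49 in AP replicates 1 to 3, against -13.03, -12.66 and -13.98 in CTL replicates 1 to 3. The difference of 0.59 was smaller than the SD of either group (0.752 in AP and 0.685 in CTL). For the other 5 counted genes the ratio to acinar markers was higher in AP, by 3.58 on the log2 scale for Trib3, 4.50 for Atf4, 7.31 for Ddit3, 8.21 for Cebpb and 8.86 for Atf3. The acinar sum fell so far that most tested genes would rise against it. Of 13240 tested genes, 13176 had a higher log2 fold change than Chac1, so these rises are not particular to the 5 genes. Against the summed macrophage markers all 6 genes were lower in AP. The difference ran from -11.62 for Chac1 to -3.35 for Atf3, with -4.00 for Cebpb and -4.90 for Ddit3. The macrophage sum rose so far that most tested genes would fall against it, since 11064 of 13240 had a lower log2 fold change than Atf3. These ratios to marker sums were chosen after the data had been seen.

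**Figure D4:**
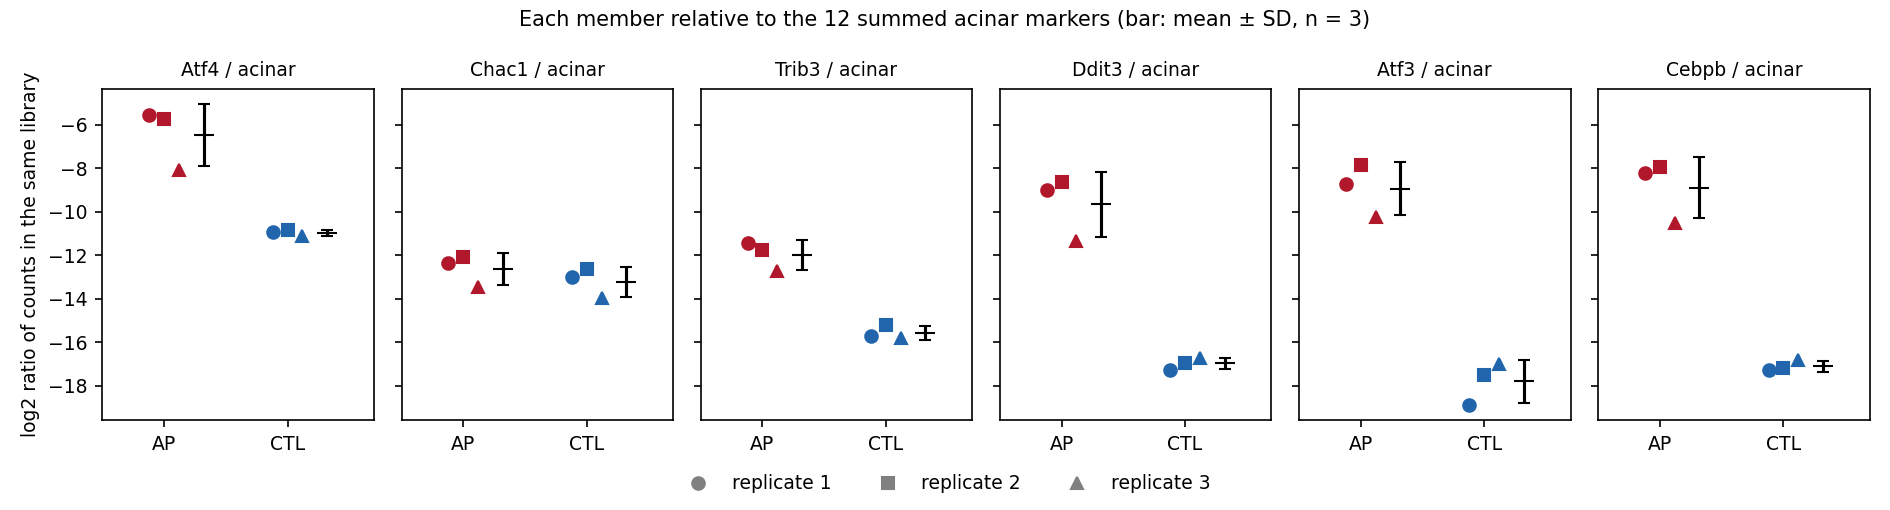
Log2 ratio of the counts of each member to the summed counts of 12 acinar markers in the same library, with AP left and CTL right. Symbols mark replicates and bars give mean ± SD (n = 3). For Chac1 the AP mean of -12.63 and the CTL mean of -13.22 differ by less than either SD, whereas the other 5 genes lie higher in AP. Most tested genes would lie higher against a marker sum that fell this far.

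The genes that control eIF2 were counted next. Of 18 listed, 17 were tested, 3 were higher and 10 lower in AP, where 34.1% of all tested genes were higher and 30.5% lower. The median log2 fold change was -0.37, against 0.07 for all tested genes. Eif2ak2, the double-stranded RNA sensor PKR that interferon induces, rose by 2.16 ± 0.274 on the log2 scale, at 116 ± 17.1 normalised CPM in AP and 25.9 ± 11.01 in CTL (SD, n = 3 each). Smaller rises were called for Ppp1ca, a phosphatase catalytic subunit (0.52 ± 0.122), and Eif2b2, an eIF2B subunit (0.43 ± 0.154, edgeR adjusted p = 0.0358, and not called without any 1 of the AP libraries or CTL replicate 1 or 3, at up to 0.0997). Eif2ak3, the kinase PERK that senses unfolded protein in the endoplasmic reticulum, fell by 2.87 ± 0.333, at 30.9 ± 12.2 normalised CPM in AP and 226 ± 78.4 in CTL. Eif2ak4, the amino acid sensor GCN2, fell by 1.88 ± 0.154. Ppp1r15b, the constitutive partner of the eIF2 phosphatase, fell by 1.94 ± 0.137. With library totals Eif2ak4 and Ppp1r15b turned to 0.30 and 0.23, neither called. With that scaling 13 genes of the list were higher and 1 lower, beside 88.2% and 4.33% of all tested genes. Eif2ak1, the heme sensor HRI, did not pass the test (-0.32 ± 0.127, edgeR adjusted p = 0.0551).

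Most other target genes of ATF4 and CHOP fell with Atf4, Chac1 and Trib3. Of 33 listed symbols 31 were tested, 27 were lower and 1 was higher in AP, beside 30.5% and 34.1% of all tested genes, with a median log2 fold change of -2.81. The 12 acinar markers were all lower as well (median -6.34, and -4.22 by library totals), and their part in the fall of these targets was not tested. Fgf21, a stress-induced hormone, fell by 7.17 ± 0.978, with 1, 3 and 5 counts in AP libraries and 197, 76 and 13 in CTL libraries (-7.78 without AP replicate 3 and -6.13 without CTL replicate 1). Cth, the cysteine-forming enzyme cystathionine gamma-lyase, fell by 6.12 ± 0.870. Stc2, a secreted glycoprotein, fell by 5.52 ± 0.507. Without AP replicate 3 they were at -7.78 and -6.24. Tnfrsf10b, a death receptor and CHOP target, was the gene that rose (1.63 ± 0.344, edgeR adjusted p = 0.00318). The 3 tested genes that were not called were Ero1a, an endoplasmic reticulum oxidase (0.32 ± 0.149), Bbc3, a BH3-only cell death gene (-0.09 ± 0.46), and Sqstm1, an autophagy receptor (-0.26 ± 0.158). With library totals 17 were lower and 9 higher, beside 4.33% and 88.2% of all tested genes, with a median of -0.63 against 2.25 for all tested genes. In the promoter windows of this list, 5 of 29 held the composite element, those of Fgf21, Herpud1, Nars1, Pycr1 and Slc7a1.

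Other bZIP factors, among them possible partners of ATF4 and CHOP, were called in shares near those of all genes. Of 35 tested, 14 were higher and 8 lower in AP, beside 34.1% and 30.5% of all tested genes, with a median of 0.47. Those named for rising were Batf, a factor of activated lymphocytes (4.68 ± 0.605, edgeR adjusted p = 0.000201), and Maf (3.83 ± 0.330, edgeR adjusted p = 2.04e-05). Batf had 203, 333 and 265 counts in AP libraries and 5, 1 and 0 in CTL libraries, and its log2 fold change was 6.55 without CTL replicate 1. T cell markers were higher in 5 of 5 tested (median 3.11) and macrophage markers in 10 of 10 (median 4.70), and their part in the rises of Batf and Maf was not tested. Xbp1, the factor of secretory capacity that the endoplasmic reticulum sensor IRE1 activates, fell by 3.60 ± 0.252. Nfil3 fell by 1.76 ± 0.219 and Creb3l2 by 1.42 ± 0.161. Both turned with library totals, Nfil3 to 0.41 (edgeR adjusted p = 0.0886) and Creb3l2 to 0.77 (edgeR adjusted p = 0.00248). With library totals 32 were higher and 1 lower, near the 88.2% and 4.33% of all tested genes.

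**Figure D5:**
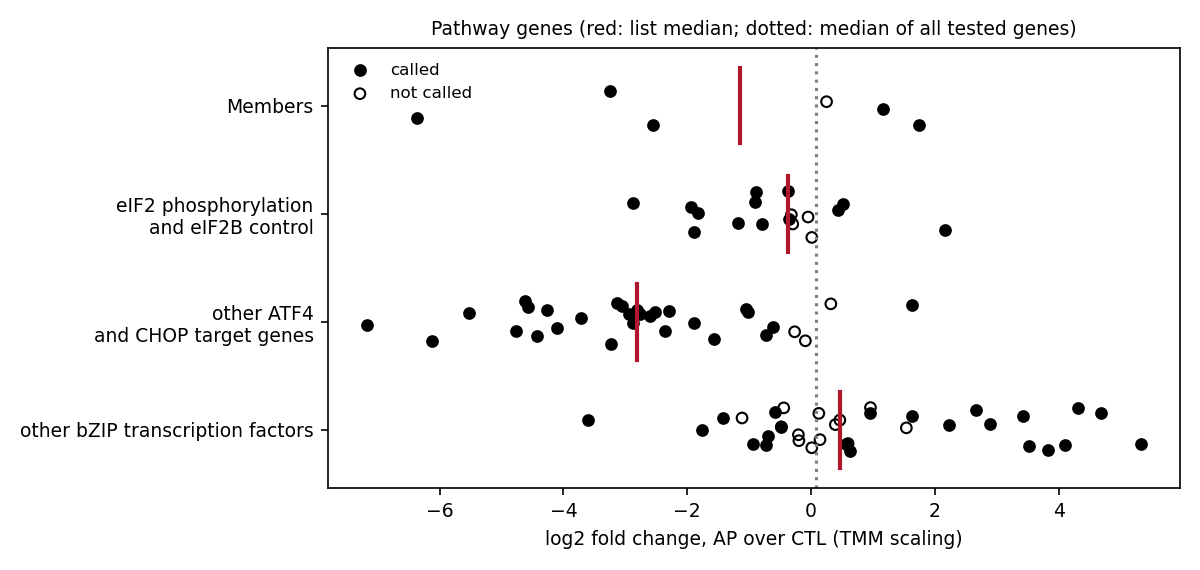
Log2 fold change, AP over CTL, of the 6 counted members and of the tested genes of 3 pathway lists, with called genes filled and others open. Red bars give the list medians (-1.15, -0.37, -2.81 and 0.47) and the dotted line the median of all tested genes (0.07). Points of the ATF4 and CHOP target list lie mostly left of the dotted line.

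The genes most like each member were sought by the root mean square (RMS) difference of gene-centred log2 normalised CPM over the 6 samples, among 10170 tested genes. For Atf4 they were Ggct and Lclat1, at RMS differences of 0.094 and 0.096 on the log2 scale. Wdr53 and Tmem186 were closest to Ddit3 (0.040 and 0.082), and Coprs and Hs6st1 to Cebpb (0.110 and 0.118). Chac1 was nearest to B3galt2 and Greb1l (0.297 and 0.336), Trib3 to Rassf6 and Six4 (0.252 and 0.309), and Atf3 to Ube2c and C1qb (0.454 and 0.471). Between members, the smallest difference was that of Ddit3 and Cebpb (0.451) and the next those of Atf3 and Cebpb (0.587) and of Atf4 and Trib3 (0.601). Chac1 and Atf3 differed most (4.15). These values describe profiles that are dominated by the difference between the groups.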

How the data were processed

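The sources give 6 samples of rat pancreas, 3 AP and 3 CTL, grouped by their titles. Libraries were made from poly(A) RNA and read at 150 bp, per the labels' protocols. The authors deposited raw counts for each gene. Per the submitters' processing notes, FastQC, STAR, featureCounts and DESeq2 were used with build mRatBN7.2. Tool versions, annotation and the handling of strand and multiply matching reads are not given here, so reads of overlapping genes cannot be told apart. Of 23096 rows, 3110 without a gene name, holding 1.41% to 7.69% of a library's counts, were left out, and rows sharing a symbol were summed.

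Counts were tested with edgeR 4.0.16 in R 4.3.3 (quasi-likelihood, TMM, default low-count filter, Benjamini-Hochberg adjustment over 13240 genes). The SE was taken as the size of the log2 fold change divided by the root of the F statistic. TMM factors averaged 2.13 in AP and 0.470 in CTL. Alternatives were other scalings, DESeq2 1.42.0, limma-voom (limma 3.58.1), other filters, the replicate number as a block, and each library left out. Scripts were tested on simulated data in which a small set of genes changed, as many up as down. The simulation was not built with a shift in composition like that between these groups, so it does not test the scaling. No pair of replicate libraries was alike within sampling noise, with 39.5 to 148 as chi-square per gene. Nothing says that samples came from separate animals, so the p-values reflect only how these samples spread, which may be technical.

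The members and lists were chosen with earlier results of these data known. Named from each pathway list were up to 3 called genes with the highest and 3 with the lowest log2 fold change at a mean logCPM of at least 2, and for each member the 2 nearest profiles. A gene that this rule names is not reported here. Genes overlapping members, other members of a list and paralogs were named after their values were seen. Planned ratios with Atf5, Cebpg, Nupr1 or Ppp1r15a could not be computed. Promoters are from RefSeq (GRCr8), where all 10 symbols matched.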

Additional observations from a re-analysis of the deposited data

How the results depend on the processing

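The calls and directions of Chac1, Atf4 and Cebpb held under each scaling, tool, filter, block and left-out library that was run. The call of Trib3 ended with library totals (-1.10) and that of Atf3 with limma-voom (1.79), where 1 gene of the set was called higher. Ddit3 became called with library totals (2.42) and with totals less acinar marker counts (1.65). The median of the 6 genes turned to 1.01 and 0.25 with these scalings. Library totals gave 11679 genes higher and 573 lower, and totals less acinar counts 10224 and 1063, against 4520 and 4032 with TMM. For eIF2 control they gave 13 and 11 higher and 1 and 4 lower, for other targets 9 and 7 higher, 17 and 22 lower, and for other bZIP factors 32 and 30 higher and 1 lower in each. Without 1 library, other targets called higher numbered 1 to 2, the 2 being without CTL replicate 3. Among named pathway genes, Ppp1r15b, Eif2ak4, Nfil3 and Creb3l2 turned with library totals (0.23, 0.30, 0.41 and 0.77). The cause was not tested beyond the scaling itself. The alternative of totals less acinar counts was chosen after the data had been seen.

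With the replicate number as a block, 4200 genes were higher and 3704 lower, and 2 and 3 of the members. It ended the call of Eif2b2 (edgeR adjusted p = 0.0707) and changed no other call among the named genes. Same-numbered libraries shared deviations with r of -0.0286, 0.0325 and -0.107, so the number was not taken as pairing them. Chac1 and Trib3 rest on 25 to 133 counts in AP libraries, which limits the precision of their fold changes.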

Other observations

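Close relatives of the members, picked after their values were seen, did not all move with them. Chac2, the other glutathione-degrading enzyme of the Chac1 family, had 5.77 ± 0.710 normalised CPM in AP and 15.8 ± 2.46 in CTL (SD, n = 3 each). It fell by 1.45 ± 0.19 (SE) on the log2 scale (edgeR adjusted p = 0.000217), but stood at 0.72 with library totals. Nupr2, a relative of Nupr1, was counted 42, 32 and 45 times in AP replicates 1 to 3, against 51, 53 and 32 times in CTL replicates 1 to 3. Its log2 fold change was -2.53 ± 0.302 (edgeR adjusted p = 0.000127) and -0.36 with library totals.

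Of the Trib3 relatives, Trib1, a scaffold that promotes the breakdown of C/EBP proteins, fell by 0.55 ± 0.181 (edgeR adjusted p = 0.0264; 1.62 with library totals). Trib2 was not called (0.06 ± 0.269, edgeR adjusted p = 0.851). Cebpd, an inflammation-induced C/EBP factor, had 401, 417 and 302 counts in AP libraries and 7, 7 and 19 in CTL libraries, and rose by 2.66 ± 0.421 (edgeR adjusted p = 0.000645). Cebpe, a factor of granulocyte maturation, had 134, 183 and 124 counts in AP libraries against 0, 2 and 0 in CTL libraries. The 8 neutrophil markers summed to 10007 to 12651 counts in AP libraries and 39 to 52 in CTL libraries, and their part in these rises was not tested.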
